A study of Mus musculus with 4 samples.

Results

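The Slc22 and Slco genes encode organic ion transporters of the mouse, and they were followed through liver and white adipose tissue (WAT) of Pnpla7-/- and wild-type animals. Members were all probes, other than controls, whose gene name on the array began with Slc22a or Slco and a number. They came to 49 of 39429 different probes and to 41 of 19896 named genes, 26 of the Slc22 family and 15 of the Slco family. Of the 41 genes, 34 had a single probe and 7 had several.

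Slc22 proteins are carriers of the plasma membrane that move small charged molecules. They include the organic cation transporters, which carry drugs and monoamines, the carnitine transporters, and the organic anion transporters, which carry urate, dicarboxylates, conjugated steroids and drugs. Slco proteins (OATPs) take up larger amphipathic anions such as bile acids, bilirubin, steroid conjugates, thyroid hormones and prostaglandins. Hepatocytes carry members of both families on their sinusoidal membrane, and the kidney tubule carries many of the others. Several of the rodent liver genes are known to differ in level between the sexes.

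The animals were C57BL/6N mice of 4 weeks, either wild type or Pnpla7-/-, with no other allele or agent in the labels. PNPLA7 is a lysophospholipase of lysophosphatidylcholine, and by its title the series concerns choline set free from phosphatidylcholine in liver. Liver and WAT of each genotype gave 1 array each, 4 in all, and each array carried Cy3-labelled RNA pooled from 5 animals. With 1 array per group there was no spread between samples, no test was made, and no difference has a replicate check.

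The labels give neither the sex of the animals nor the fat depot, and their extraction protocol names livers for all 4 samples. The Pnpla7 probe was well above background on every array. Set against the 75th percentile of each array, wild-type liver had 9.04 times that signal and liver labelled knockout 7.98 times. Wild-type WAT had 0.739 times and WAT labelled knockout 0.372 times. The sources used here do not say which part of Pnpla7 was deleted. The probe therefore checks no label, and "labelled knockout" is written of both such arrays. Between 65.5% and 72.6% of an array's spots were well above background, and 0 were saturated.

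A level here is the log2 of a probe's processed signal minus that of its array's 75th percentile, so that 0 is the 75th percentile. Levels compare 1 probe between arrays and say nothing about the abundance of different genes. A ratio is the difference of 2 such levels, as labelled knockout over wild type or as WAT over liver. The error beside a ratio is the scanner software's model error for the probes and holds no variation between animals. For a mean over several probes it treats their errors as independent. Different probes of a gene had a pooled SD of 0.20 in liver ratios and 0.23 in WAT ratios. At a median the model error was 0.20 in both. The tissues are mixtures, so fewer cells of a type and less RNA per cell cannot be told apart.

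Detection differed among the members, and its patterns were not counted over all genes. On every array 18 of the 41 genes were well above background, and 13 were so on none. On both liver arrays but neither WAT array were 5 genes, namely Slc22a26, Slc22a27, Slc22a29, Slc22a30 and Slco1a1. On both WAT arrays but neither liver array were 3 genes, namely Slc22a2, Slc22a14 and Slc22a20. The remaining 2, Slc22a3 and Slc22a7, missed the limit on 1 array each. Array by array, 25 members were well above background in wild-type liver, 24 in liver labelled knockout, 23 in wild-type WAT and 22 in WAT labelled knockout. In the same order 65.5%, 68.2%, 72.6% and 68.1% of all spots were so, a share by spot and not by gene. Whether the members differ from the whole array in detection was not tested.

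**Figure D1:**
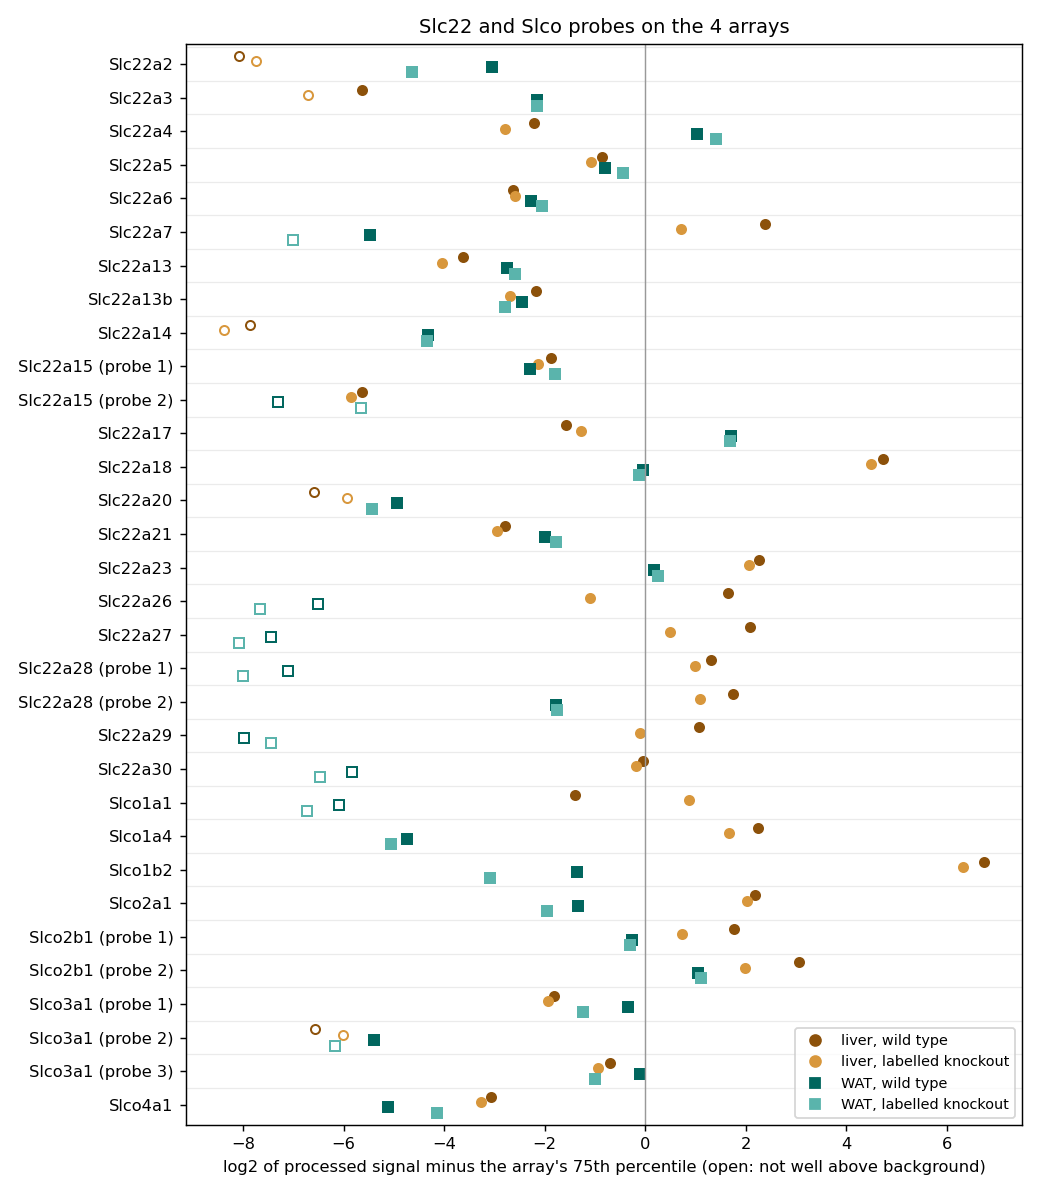
Levels (horizontal, log2 of the signal relative to the 75th percentile of the array) of the probes of members named here and detected on at least 1 array, 1 line per probe, with circles for liver, squares for WAT and open symbols for values not well above background. Filled circles far to the right of open squares mark Slc22a26, Slc22a27, Slc22a29 and Slc22a30, and the 13 members detected on no array are left out.

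The 13 genes not well above background on any array were known mostly from other organs. Slc22a8 and Slc22a12, the latter the urate exchanger of the kidney, belong to the kidney tubule. Slc22a16 and the testis genes Slco6b1, Slco6c1 and Slco6d1 are known from the male reproductive tract. Slco1c1 takes up thyroxine at the blood-brain barrier. The others were Slc22a19, Slc22a22, Slco1a5, Slco1a6, Slco4c1 and Slco5a1. Of the 5 kidney tubule markers, 3 were measured in both tissues, while Umod and Slc12a1 were not well above background on any array.

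In liver, 24 of the 41 members were measured on both arrays. In the array labelled knockout 5 members were at least 2-fold lower and 1 was at least 2-fold higher. The background over 14466 measured genes was 0.871% for the lower side and 1.76% for the higher. That lower share depends on the processing. Under the normexp background correction with an offset of 0, 1238 of the 14466 genes and 4 members were lower. The other 18 members lay within 2-fold, between -0.59 and 0.30. Of the 24 ratios, 21 were below 0 and 3 above, with a median of -0.33 against -0.03 for all genes. The 10 hepatocyte markers had a median of -0.28 in the same arrays, with 0 past 2-fold, and 0.0058 with quantile normalization, where the members had -0.24. Their part in the members' median was not tested. The lower members were Slc22a26, Slc22a7, Slc22a27, Slc22a29 and Slco2b1, and the higher one was Slco1a1. These 6 genes rest on the following probes, of which the first 30 of 60 bases are shown in mm9 to make plain what hybridised.
Slc22a7 probe, chr17:46569272-46569331, minus strand: cctgtgtttatccagtctccaaaaacagga
Slc22a26 probe, chr19:7856477-7856536, minus strand: attctaggaatatttgtctcaactccaatc
Slc22a27 probe, chr19:7938881-7938940, minus strand: tttttccacttctgtgatataatacctgag
Slc22a29 probe, chr19:8234836-8234895, minus strand: cacataggaattgctgcaatcgattactat
Slco1a1 probe, chr6:141856493-141856552, minus strand: gatattctcaaagactactttcttatactc
Slco2b1 first probe, chr7:106806901-106806960, minus strand: gctgtatacatacagctgattattaaattt
Slco2b1 second probe, chr7:106806923-106806982, minus strand: cagtttgtacaggaatagcctggctgtata

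Slc22a26 had the lowest liver ratio of the members. It encodes a liver organic anion transporter of the mouse that is related to carriers of steroid sulphates. Its level was 1.64 in wild-type liver and -1.11 in liver labelled knockout, and its probe was not well above background on either WAT array. The ratio was -2.75 with an error of 0.20, a 6.72-fold lower signal. That is many times the pooled SD between probes of a gene, which holds no variation between animals.

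Slc22a7 encodes an organic anion transporter of the hepatocyte known for carrying dicarboxylates, prostaglandins and nucleotides. Its level was 2.39 in wild-type liver, 0.72 in liver labelled knockout and -5.48 in wild-type WAT. In WAT labelled knockout it was not well above background. The liver ratio was -1.67 with an error of 0.20, a 3.18-fold lower signal. In WAT only a bound could be given, with the wild-type array at least 1.22-fold higher.

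Slc22a27 and Slc22a29 are further organic anion transporters of mouse liver. Slc22a27 had a level of 2.09 in wild-type liver and 0.49 in liver labelled knockout, a ratio of -1.60 with an error of 0.20. Slc22a29 had 1.07 and -0.11, a ratio of -1.17 with an error of 0.20. Both were dim on the WAT arrays. In liver both were lower in the array labelled knockout by well over the pooled SD between probes, again without variation between animals.

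Slco2b1 carries steroid sulphates and many drugs and was read by 2 probes, which overlap by 38 bases and are not independent. The first had levels of 1.77 in wild-type liver, 0.73 in liver labelled knockout, -0.25 in wild-type WAT and -0.30 in WAT labelled knockout. The second had 3.06, 1.99, 1.05 and 1.12 in the same order. Both were lower in liver labelled knockout, and neither differed between the WAT arrays by more than its error. The mean liver ratio was -1.06. Its error of 0.14 treats the 2 probes as independent and is too small for probes that overlap. Each probe alone had an error of 0.20. The mean ratio lay so close to the 2-fold limit that it passed it in 5 of 8 settings of the processing, with values from -1.07 to -0.95.

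Slco1a1 was the exception in direction. It encodes an uptake carrier of steroid conjugates and bile acids that is known to be much higher in adult male than in female mouse liver. Its level was -1.39 in wild-type liver and 0.87 in liver labelled knockout, and it was not well above background in WAT. The ratio was 2.26 with an error of 0.20, a 4.79-fold higher signal. The measured neighbours in its subfamily had ratios below 0. Slco1a4, an uptake carrier of bile acids and cardiac glycosides, had levels of 2.26 and 1.67 in liver and a ratio of -0.59. Slco1b2, the main uptake carrier of bilirubin and many drugs in mouse hepatocytes, had 6.75 and 6.32 and a ratio of -0.43.

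**Figure D2:**
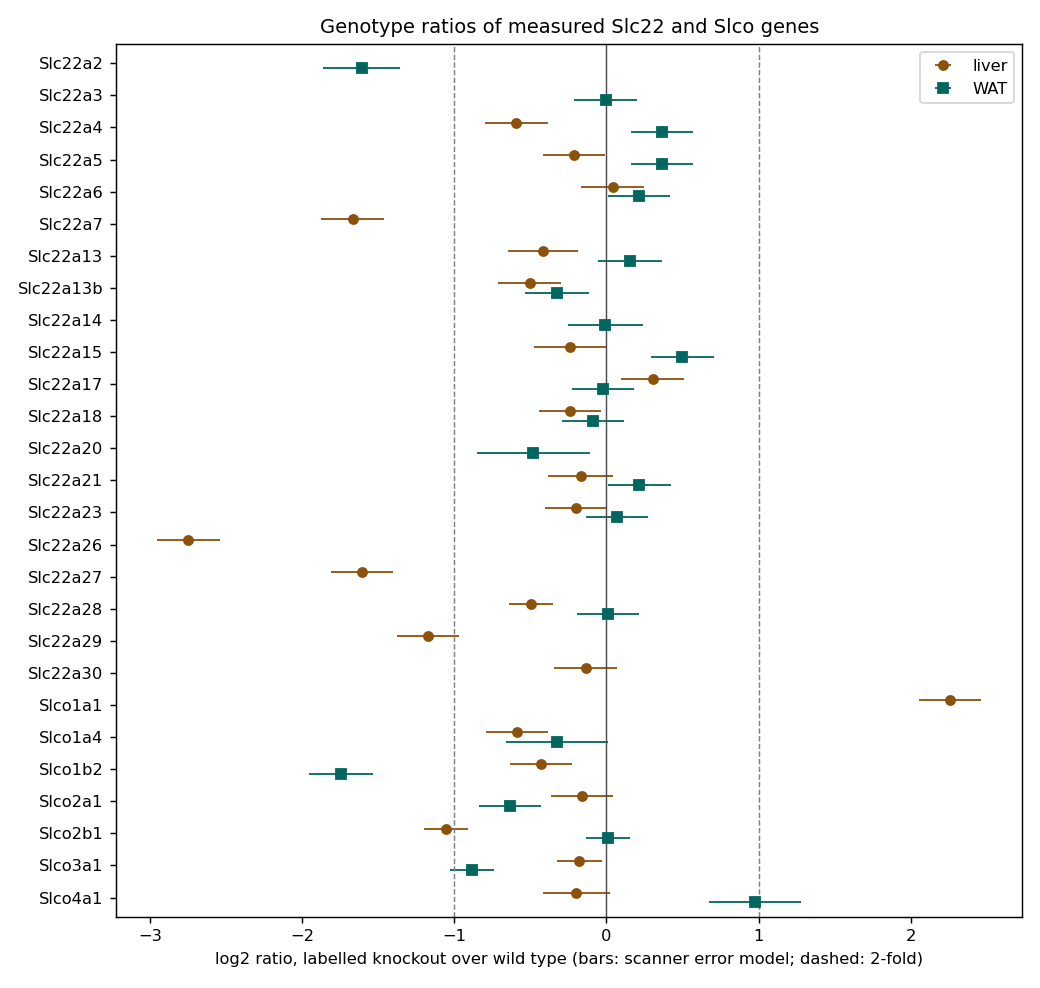
Labelled-knockout over wild-type log2 ratio for measured members, in liver and WAT, with the model error as bars and broken lines at 2-fold. In liver Slco1a1 stood at 2.26 and Slc22a26 at -2.75, while in WAT Slco1b2 stood at -1.75.

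By role, 4 of the 5 lower members of liver were organic anion transporters. Of 14 such genes 8 were measured, and 4 were at least 2-fold lower, with ratios from -2.75 to 0.04 and a median of -0.83. Of the 4 measured carnitine transporters (Slc22a4, Slc22a5, Slc22a15 and Slc22a21) 0 reached 2-fold, and their ratios lay between -0.59 and -0.17. Of the 4 other Slc22 genes (Slc22a13b, Slc22a17, Slc22a18 and Slc22a23) 0 reached 2-fold, with a range from -0.51 to 0.30. The prostaglandin carrier Slco2a1, which clears prostaglandins from the circulation, had levels of 2.18 and 2.02 in liver and a ratio of -0.16.

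Of the 6 members past 2-fold in liver, Slc22a26, Slc22a27 and Slc22a29 lie in 1 run of organic anion transporter genes on chromosome 19, with Slc22a28 and Slc22a30 beside them. Along the run the liver ratios were -2.75 for Slc22a26, -1.60 for Slc22a27, -0.49 for Slc22a28, -1.17 for Slc22a29 and -0.14 for Slc22a30. Slc22a30 had levels of -0.05 and -0.19 in liver, so neighbouring genes of the run did not share 1 ratio. The 2 probes of Slc22a28 gave -0.66 and -0.33 in liver and had the same sign. Probe letters were compared with those of other probes alone. The longest run that a member probe shared with a probe of another gene was 18 bases, of 60. Probes of related genes can lie at different places of their transcripts, and the transcripts were not searched. Cross-hybridisation between members was therefore not tested.

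**Figure D3:**
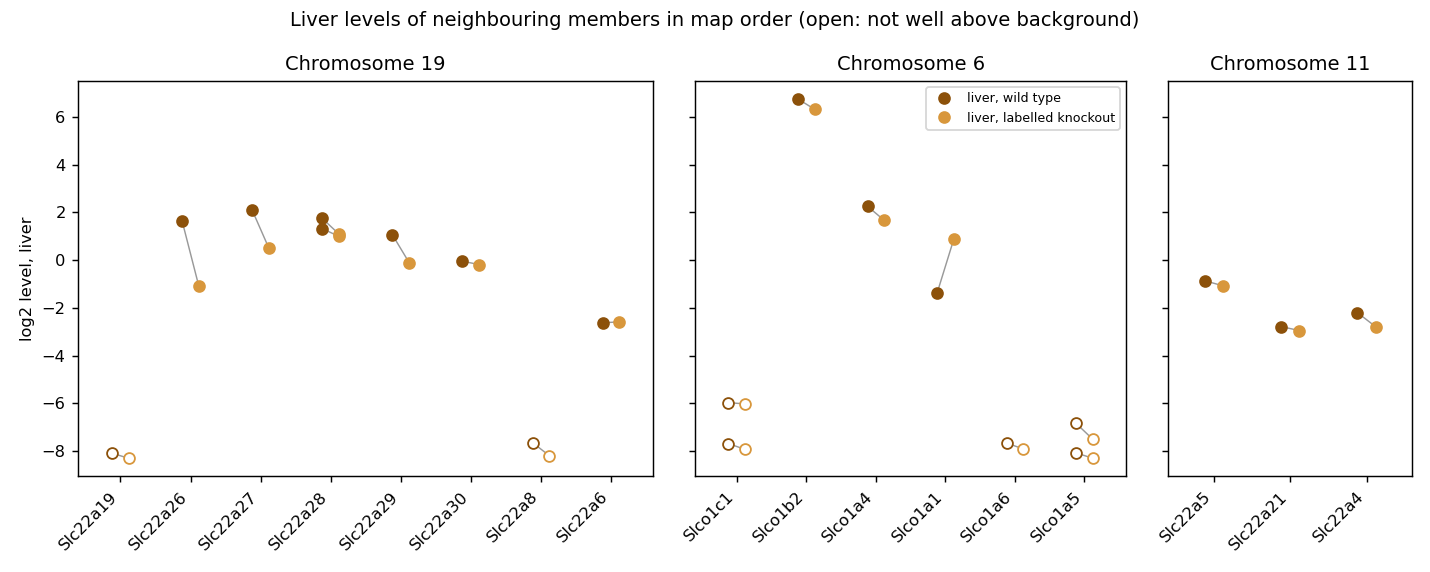
Liver levels (vertical, log2 relative to the array's 75th percentile) of members that neighbour each other on chromosomes 19, 6 and 11, in map order, with a line from the wild-type to the labelled-knockout value of each probe and open circles for values not well above background. The line of Slc22a26 drops by 2.75 and that of Slc22a30 by 0.14, while Slco1a1 climbs from -1.39 to 0.87 beside Slco1a4.

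The 250 bases before the start of these 5 genes, and of Slco1a1, are shown beside their differing liver ratios. Only the bases of Slc22a28 and Slc22a30 were near copies. All sequences come from RefSeq, GRCm38.p6, and capitals mark letters that match a searched motif. Those were TTCNNNGAA (the STAT5 motif) in Slc22a26, TTGCNNAA (a CEBP motif) in Slc22a28, Slc22a29 and Slc22a30, and TATAAA, on the opposite strand, in Slco1a1.
Slc22a26 upstream, chr19:7802668-7802917, minus strand: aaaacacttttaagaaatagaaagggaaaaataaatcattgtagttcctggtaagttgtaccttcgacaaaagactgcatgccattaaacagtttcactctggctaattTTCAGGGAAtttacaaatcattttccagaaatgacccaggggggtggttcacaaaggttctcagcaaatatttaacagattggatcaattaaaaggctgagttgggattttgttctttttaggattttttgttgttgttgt
Slc22a27 upstream, chr19:7966028-7966277, minus strand: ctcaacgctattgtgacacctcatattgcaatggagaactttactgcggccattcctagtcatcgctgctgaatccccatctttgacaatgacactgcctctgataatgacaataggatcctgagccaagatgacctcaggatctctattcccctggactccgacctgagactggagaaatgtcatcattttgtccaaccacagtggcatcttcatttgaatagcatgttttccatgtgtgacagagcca
Slc22a28 upstream, chr19:8131983-8132232, minus strand: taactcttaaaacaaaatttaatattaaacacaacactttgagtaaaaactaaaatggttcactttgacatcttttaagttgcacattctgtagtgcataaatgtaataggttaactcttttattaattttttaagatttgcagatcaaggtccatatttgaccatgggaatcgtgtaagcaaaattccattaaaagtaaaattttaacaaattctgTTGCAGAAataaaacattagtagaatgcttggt
Slc22a29 upstream, chr19:8218901-8219150, minus strand: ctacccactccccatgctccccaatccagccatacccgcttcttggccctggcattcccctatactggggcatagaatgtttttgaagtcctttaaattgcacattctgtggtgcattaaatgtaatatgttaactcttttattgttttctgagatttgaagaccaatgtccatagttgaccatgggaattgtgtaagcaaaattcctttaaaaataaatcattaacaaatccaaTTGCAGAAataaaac
Slc22a30 upstream, chr19:8405106-8405355, minus strand: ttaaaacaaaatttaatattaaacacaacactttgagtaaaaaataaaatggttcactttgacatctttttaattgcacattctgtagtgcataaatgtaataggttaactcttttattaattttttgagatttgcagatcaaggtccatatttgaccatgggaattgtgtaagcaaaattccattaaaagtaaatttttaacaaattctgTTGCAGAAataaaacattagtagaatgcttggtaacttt
Slco1a1 upstream, chr6:141946963-141947212, minus strand: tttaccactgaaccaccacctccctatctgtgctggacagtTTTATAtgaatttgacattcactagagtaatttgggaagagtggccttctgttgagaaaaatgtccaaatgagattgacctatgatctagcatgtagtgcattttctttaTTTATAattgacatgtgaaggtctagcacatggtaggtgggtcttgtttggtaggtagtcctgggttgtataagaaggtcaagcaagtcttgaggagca

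Slc22a28 and Slc22a30 were the near copies, with 238 identical bases in 256 aligned columns (93.0%). Slc22a29 shared 65.1% with Slc22a28 and 62.7% with Slc22a30. Slc22a26 and Slc22a27, the members with the lowest ratios of the run, shared 46.0% with each other. The upstream bases of Slco1a1, Slco1a4 and Slco1b2, on another chromosome, shared between 43.6% and 51.5% with those of the run. The 46.0% lay within that range and so marks no likeness beyond that of genes on different chromosomes. The values of Slc22a29 with Slc22a28 and Slc22a30 lay above it. The near copies had liver ratios of -0.49 and -0.14, and the other 3 had lower ones. A link between upstream likeness and liver ratio was not tested.

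A promoter window of 300 bases, on both strands, was held for 35 of the 41 members, with 40 windows in all. TTCNNNGAA was in 8 of the 40 windows and in 8.30% of all 32851 promoters. It was found for Slc22a15, Slc22a16, Slc22a19, Slc22a26, Slco1a5, Slco1b2 and Slco2b1. Of these Slc22a26 and Slco2b1 were at least 2-fold lower in liver, Slc22a15 and Slco1b2 had ratios of -0.24 and -0.43, and the others were not measured. Slc22a27, Slc22a29 and Slco1a1, also past 2-fold in liver, had windows without these letters. No match was found for Slc22a7 either, where a missing window was not told apart from absence. A link between the motif and the liver ratios was not tested. TTGCNNAA was in 5 windows and in 10.8% of all promoters, and TATAAA was in 8 windows and in 13.6% of all. The HNF1 motif, the HNF4 motif of the direct-repeat kind and TGTTTAC (FOXA) were in 0 of the 40, against 0.0396%, 0.0396% and 3.65% of all promoters. A match is a description of letters, and its absence says only that these letters were not in the window.

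Because several of these carriers are known to differ by sex in mouse liver, 2 lists of other liver genes with a known sex bias were set beside them. Of 18 female-biased genes 15 were measured, and in liver labelled knockout 10 were lower by 2-fold or more and 0 were higher. Their median was -1.97. Examples were Cyp2b13 at -4.12 and the sulphotransferase Sult3a1 at -3.12. Of 16 male-biased genes 13 were measured, of which 3 reached 2-fold on the higher side and 0 on the lower. Their median was 0.58. The 3 were Hsd3b5 at 1.76, Cyp4a12b at 1.74 and Cyp4a12a at 1.17. Below 0 were Cyp7b1 at -0.64, Ugt2b1 at -0.58, Ugt2b38 at -0.25 and Nudt7 at -0.12. All 4 arrays had Xist, the RNA that coats an inactive X, well above background, at levels between -0.59 and -0.18. The Y-linked Ddx3y, Eif2s3y, Uty and Kdm5d were well above background on none. The part of these patterns in the ratios of the members was not tested.

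Regulators and other transporters of liver were mostly within 2-fold. Of 25 transcriptional regulators and receptors 24 were measured and 0 reached 2-fold, with a median of -0.21. The growth hormone receptor Ghr had -0.77 and Stat5b, a transducer of growth hormone signals, had -0.61. Onecut1 had 0.63, and the repressor Bcl6 had -0.54. Of 21 other transporters of bile acids, conjugates and drugs 20 were measured. Their median was -0.31, and 2 reached 2-fold on the higher side and 0 on the lower. The higher ones were the efflux pumps Abcb1b at 1.24 and Abcc4 at 1.01.

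In WAT, 22 of the 41 members were measured on both arrays. In the array labelled knockout 2 were at least 2-fold lower, Slco1b2 and Slc22a2, and 0 were higher. The background over 14964 measured genes was 2.11% for the lower side and 2.18% for the higher. The other 20 lay between -0.89 (Slco3a1) and 0.97 (Slco4a1), and the median was -0.01 against 0.02 for all genes. With quantile normalization Slco4a1 reached 1.01, and the split became 1 higher and 2 lower.

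Slco1b2 had levels of -1.35 in wild-type WAT and -3.09 in WAT labelled knockout, a ratio of -1.75 with an error of 0.21. In the liver arrays the same probe was at 6.75 and 6.32. The hepatocyte markers had WAT ratios from -1.62 (Ttr) to 0.22 (Apoc3). All 10 were well above background on both WAT arrays, 5 were at least 2-fold lower in the array labelled knockout, and their median ratio was -0.85. Their summed signal was 23.9 times the 75th percentile in wild-type WAT and 10.4 times in WAT labelled knockout, against 1574 and 1352 times in the liver arrays. The part of hepatocyte RNA in these values was not tested.

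Slc22a2, an organic cation transporter best known from the kidney tubule, had levels of -3.04 in wild-type WAT and -4.65 in WAT labelled knockout, and was not well above background in liver. The ratio was -1.61 with an error of 0.25. It ranged from -1.64 to -0.94 over the settings of the processing, and it missed 2-fold under the normexp background correction with an offset of 50. Slc22a3, the extraneuronal monoamine transporter, had -2.15 and -2.16 in the same arrays and did not differ beyond its error.

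The 4 measured carnitine transporters all lay above 0 in WAT, with ratios between 0.22 and 0.50, below 2-fold, and a median of 0.36. In each of the 8 settings all 4 stayed above 0, and with dim probes kept Slc22a15 reached 1.08. Slc22a4, which carries ergothioneine and carnitine, had levels of 1.04 in wild-type WAT and 1.40 in WAT labelled knockout. Slc22a5, the high-affinity carnitine transporter, had -0.80 and -0.44. Both differences were larger than their errors of 0.20. Of 10 genes of carnitine synthesis and use, all measured in WAT, 3 reached 2-fold on the higher side there and 0 on the lower. Their median was 0.58. The higher ones were Cpt1b at 2.10, the carnitine palmitoyltransferase of muscle and brown fat, the carnitine carrier Slc25a20 at 1.23 and the acetyltransferase Crat at 1.15. In liver 0 of these 10 reached 2-fold, with a median of -0.14.

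Markers of muscle and brown fat differed between the same WAT arrays. All 8 skeletal muscle markers were at least 2-fold higher in WAT labelled knockout, with a median ratio of 4.47, and their summed signal was 1.35 and 30.3 times the 75th percentile. Of 6 brown adipocyte markers 5 were higher, with a median of 2.30 and summed signals of 30.6 and 131. Of the 6 secretory epithelium markers 5 were measured and 3 were higher, with a median of 2.17 and summed signals of 0.986 and 6.47. The 10 adipocyte markers had a median of 0.16 with summed signals of 947 and 1059. Of them 1 was at least 2-fold lower in WAT labelled knockout, Lep at -1.99, and 0 were higher. Endothelial and macrophage markers had medians of -0.44 and -0.84. The part of any of these tissues in the WAT ratios of the members was not tested.

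Slco4a1 and Slco3a1 had the ratios farthest apart within 2-fold in WAT. Slco4a1, a carrier of thyroid hormones and prostaglandins, had levels of -5.11 in wild-type WAT and -4.14 in WAT labelled knockout. Its ratio of 0.97 had an error of 0.30, the signal being low, and with normexp at an offset of 50 it was 0.42. Slco3a1, which carries prostaglandins and thyroxine, was measured by 2 of its 3 probes. One had levels of -0.35 and -1.23 and the other -0.11 and -0.99, so both were lower in WAT labelled knockout, with a mean ratio of -0.89. The prostaglandin carrier Slco2a1 had -1.33 and -1.96, a ratio of -0.63. Of 16 genes of prostaglandin synthesis, breakdown and receptors 15 were measured in WAT, 1 was at least 2-fold higher (the synthase Hpgds at 1.53) and 2 lower (the receptors Ptgfr at -1.24 and Ptgir at -1.04), with a median of -0.29. In liver 12 were measured and 1 was lower, the synthase Ptgds at -2.39, with a median of -0.22.

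Between the tissues the members stood much farther apart than between the genotypes. In the wild type 20 members were measured in both tissues, 10 were at least 2-fold lower in WAT and 4 at least 2-fold higher, against 16% and 18.5% of all 14240 genes. In the arrays labelled knockout 18 were measured, 7 were lower and 4 higher, against 14.1% and 17.9% of all 14275 genes. Different probes of a gene spread more in this comparison, with pooled SDs of 0.66 and 0.63.

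Uptake carriers known from hepatocytes had WAT over liver ratios far below 0. In the wild type the WAT over liver ratio was -8.10 for Slco1b2, -7.87 for Slc22a7 and -6.99 for Slco1a4. Slc22a18, an imprinted gene of unsettled substrate, had levels of 4.74 in wild-type liver, 4.50 in liver labelled knockout, -0.04 in wild-type WAT and -0.13 in WAT labelled knockout. Slc22a23, a carrier without a known substrate, had 2.26, 2.07, 0.19 and 0.26. The liver-only members had bounds. In the wild type the liver signal was at least 338-fold higher for Slc22a27, 247-fold for Slc22a26, 166-fold for Slc22a29, 55.1-fold for Slc22a30 and 26.0-fold for Slco1a1. On the arrays labelled knockout the bound was larger for Slco1a1 and smaller for the other 4. It was 76.7-fold for Slc22a27, 50.7-fold for Slc22a29, 48.1-fold for Slc22a30 and 25.4-fold for Slc22a26. Slc22a7, dim in WAT labelled knockout, was there at least 89.9-fold higher in liver.

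The 2 probes of Slc22a28 differed in WAT. One had levels of 1.32 and 0.99 in liver and was not well above background on either WAT array. The other had 1.75 and 1.09 in liver and -1.77 and -1.76 in WAT, well above background on all. The WAT over liver ratio of the wild type, -3.51, rests on that second probe alone, and with dim probes kept it was -5.97. The level of this gene in WAT is therefore uncertain.

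In the wild type Slc22a3, Slc22a17, Slc22a4 and, at 1.03, Slco3a1 were at least 2-fold higher in WAT. Slco3a1 passed 2-fold in 4 of 8 settings, with values from 0.60 to 1.13. In the arrays labelled knockout the higher members were Slc22a4, Slc22a17, Slc22a13 at 1.45 and Slc22a21 at 1.19. Slc22a21 passed in 7 of 8 settings, its lowest value being 0.97. Slc22a17, described as a receptor for lipocalin, had liver levels of -1.57 and -1.27 against WAT levels of 1.70 and 1.68, a wild-type ratio of 3.28. Slc22a4 had -2.20 and -2.80 in liver, and its ratio was 3.24 in the wild type and 4.20 in the arrays labelled knockout. Slc22a3 had a level of -5.64 in wild-type liver and was not well above background in liver labelled knockout. Its wild-type ratio of 3.49 had an error of 0.35 and dropped to 1.19 under normexp with an offset of 50. In the arrays labelled knockout it was again higher in WAT, though with a bound alone. Slc22a2 was at least 7.02-fold higher in WAT of the wild type and 2.67-fold in the arrays labelled knockout, and Slc22a14 at least 2.87-fold and 3.32-fold. Slc22a20 was at least 1.87-fold and 1.43-fold higher in WAT, with levels there of -4.94 and -5.43.

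The change of the WAT to liver gap between the genotypes could be given for the 18 members measured on all 4 arrays. In the arrays labelled knockout the gap was at least 2-fold higher for 2 and at least 2-fold lower for 1, against 3.61% and 4.92% of 13880 genes, and the median change was 0.27 against 0.04. Slco4a1 had a change of 1.17, with a gap of -2.05 in the wild type and -0.88 in the arrays labelled knockout. Slco2b1 had 1.06, from -2.01 to -0.95, through its lower liver level, and passed 2-fold in 4 of 8 settings, with values from 0.96 to 1.13. Slco1b2 had -1.31, from -8.10 to -9.41, through its lower WAT level. With quantile normalization, or with the 75th percentile taken over probes well above background on all arrays, the split was 1 higher and 1 lower.

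**Figure D4:**
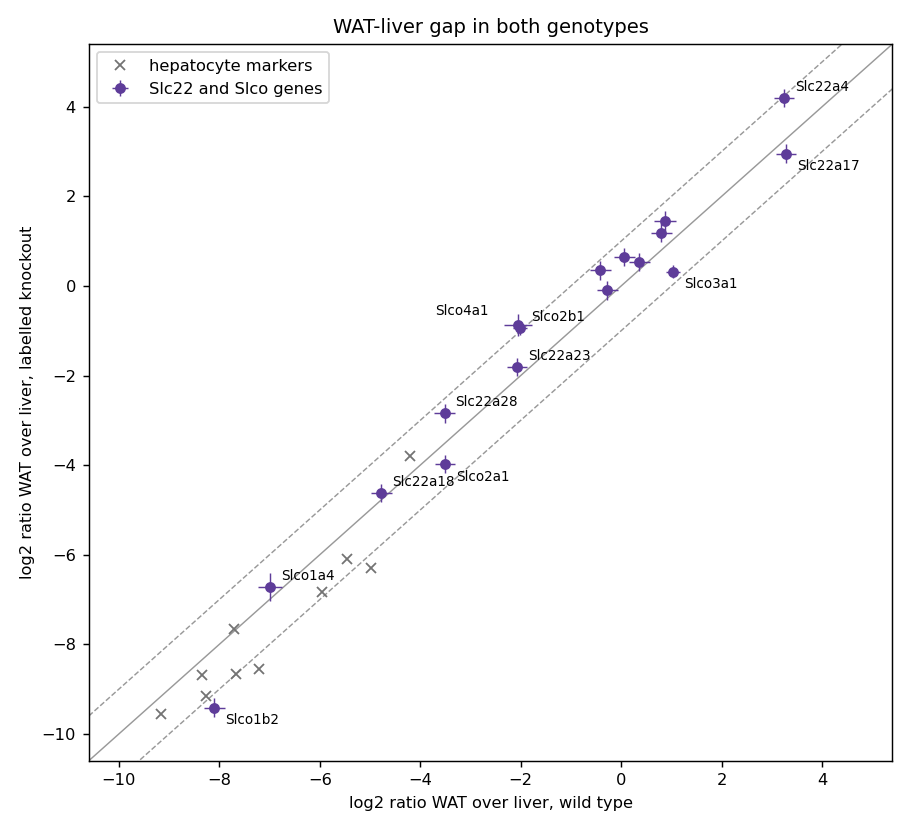
WAT over liver log2 ratio of members measured on all 4 arrays, on the arrays labelled knockout (vertical) against the wild-type arrays (horizontal), with model errors as bars, a full line for equality, broken lines for 2-fold changes of the gap, and crosses for the hepatocyte markers. Slco4a1 and Slco2b1 lie above the upper line, with changes of 1.17 and 1.06, and Slco1b2 lies below the lower one at -1.31.

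**Figure D5:**
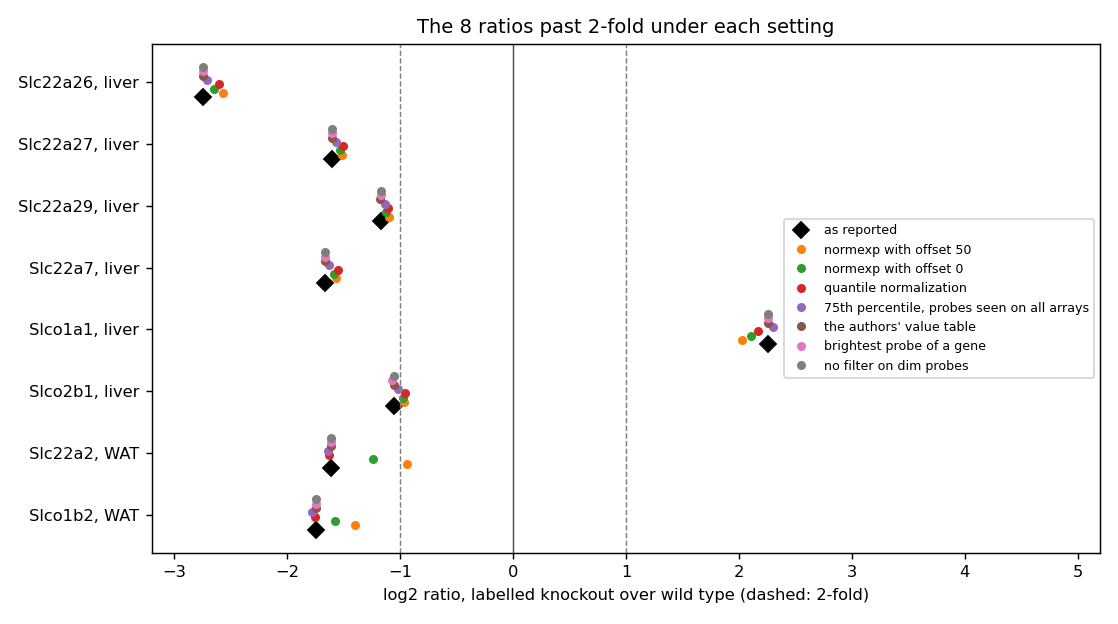
Log2 ratio of the members at least 2-fold different between the genotypes, in each of the 8 settings of the processing. Slc22a26 stays between -2.75 and -2.57 and Slco1a1 between 2.03 and 2.30, while Slco2b1 crosses the 2-fold line and Slc22a2 in WAT does so in 1 setting.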

How the data were processed

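The arrays were 1-colour Agilent mouse arrays (Cy3), all on 1 slide with 1 scan time. The authors deposited scanner files whose intensities were read with Agilent Feature Extraction, version 11.0.1.1 per the submitters' processing notes. Per the file headers they were corrected for background and not normalized between arrays. The authors' deposited table of the series held the same signals as a ratio to 1 constant per array (1470, 1764, 1690 and 1613), with column medians of 0.0737, 0.0751, 0.0876 and 0.0875. Its scale and direction were settled in this way, and it served as an alternative.

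From each processed signal, on the log2 scale, the 75th percentile of its array (controls left out) was subtracted. Spots marked as outliers were left out. A probe was measured in a pair if most of its spots passed the well-above-background mark on each array and 0 were saturated, and measured probes of a gene were averaged. Where 1 array alone measured a probe, the fold is a lower bound, taken against the dim probe's own signal or, if that was larger, the lowest signal that passed the mark on the dim array. Names were updated through RefSeq tables (GRCm38.p6), which left 49 of 49 member names as they were. Clone and predicted names were not counted as genes. The probe annotation is on mm9. The exon or UTR under each probe was not analysed here, nor were protein sequences. The values of 1 member are not reported here, though it is kept in the counts and medians.

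Members, lists and tests were chosen with earlier results of these data known. Named were members at least 2-fold different between genotypes or with a bound of that size, those with high levels or disagreeing probes, those with the largest change of the gap, and up to 4 genes of each list. The step that forms gene ratios between genotypes was tested on simulated levels with planted folds and noise of the size seen between probes. That noise held no variation between animals. Scaling, background handling, bounds, tissue comparisons and the motif search were not tested in this way. Tools were Python 3.11.15, pandas 2.3.3, R 4.3.3 and limma 3.58.1, the last for background correction (normexp) and quantile normalization among 7 alternatives. The number of arrays limits the precision.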

Additional observations from a re-analysis of the deposited data

Results flagged for a closer look

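Slc22a4 and Slc22a5, which lie near each other on chromosome 11, went in opposite directions in the tissues. Slc22a4 had a ratio of labelled knockout to wild type of -0.59 in liver and 0.36 in WAT, so its WAT to liver gap changed by 0.96 on the log2 scale. Slc22a5 had -0.21 and 0.37, a change of 0.58. Each of these ratios was larger than its model error, that of Slc22a5 in liver barely so, with an error of 0.20. Other members also had opposite signs, with at least 1 of the 2 ratios within its model error. Among them was Slc22a21, which lies between Slc22a4 and Slc22a5, at -0.17 and 0.22. Slc22a15 had -0.24 and 0.50, and a gap change of 0.76 on the 1 probe measured in both tissues. With 1 array per group and tissue the difference was not tested in any of these genes.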

How the results depend on the processing

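No paired analysis was possible because each group had 1 array. No value of a member past 2-fold changed direction. The small median of members in WAT changed sign with quantile normalization and, at 0.07, with dim probes kept. Of 105 recomputed counts and medians of members 91 stayed close to the reported value and 14 moved, and of 287 values of single members 268 stayed close and 19 moved. Close meant a shift below the pooled SD between probes, up to 0.66 between tissues, or for counts a limited relative change. Some settings could hardly move a value. For the 34 genes with a single probe, taking the brightest probe or keeping dim probes repeats a measured ratio. The authors' table holds the same signals over a constant. With normexp at an offset of 50 the members at least 2-fold lower in WAT numbered 1. With quantile normalization 1 member was higher in WAT. Without a filter on dim probes the WAT counts were 1 higher and 4 lower. The same setting gave 7 higher, 17 lower and a median of -0.39 between the wild-type tissues, 7, 13 and 0.27 between the tissues labelled knockout, where the median was -0.49 as reported, and 6 higher and 4 lower changes of the gap. Higher gaps numbered 1 with quantile normalization and 1 with the 75th percentile over probes well above background on all arrays. Of 70 list medians 8 moved. Normexp at an offset of 50 shifted the liver median of all genes by -0.14, to -0.18. The liver split over all genes went from 255 higher and 126 lower to 98 and 211. At an offset of 0 that split was 107 higher and 1238 lower, and the members had 1 higher and 4 lower. Ratios that rest on a dim value, such as that of Slc22a3 between the tissues and that of Slc22a2 in WAT, moved with the background correction.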

Other observations

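Among the 18 members measured on all 4 arrays, likeness was taken as the distance between patterns of levels after each gene's own mean was removed. The most alike pairs were Slc22a5 and Slc22a6 (0.23), Slc22a13 and Slc22a21 (0.25), and Slc22a5 and Slc22a15 (0.40). Slc22a6 is an organic anion transporter best known from the kidney, at -2.63 and -2.59 on the liver arrays and at -2.27 and -2.05 on those of WAT. With 4 arrays these distances are descriptions.

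Genes that handle the substrates of these carriers were mostly within 2-fold between the genotypes. Of 9 genes of monoamine clearance 8 were measured in liver and 7 in WAT, and 0 reached 2-fold in either. Of 7 choline transport genes 5 were measured in each tissue, and 0 reached 2-fold, with medians of -0.03 in liver and 0.26 in WAT. Of 12 thyroid hormone genes 10 were measured in liver, where the deiodinase Dio1 was lower at -1.11. In WAT 11 were measured, with Dio2, which is also a brown adipocyte marker, at 2.98 and the carrier protein Ttr, which is also a hepatocyte marker, at -1.62. Other transporters in WAT included 3 at least 2-fold lower of 13 measured, the hepatic pumps Abcb11 at -1.87, Abcc3 at -1.40 and Abcg5 at -1.24.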
